A study of Mus musculus with 6 samples.

Results

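Interferon-stimulated genes are switched on when a cell senses interferon, and they encode sensors of foreign nucleic acid, transcription factors, antiviral effectors, GTPases and parts of the antigen processing machinery. The 30 genes listed here were taken as every probe set whose gene symbol in the array's annotation is one of them. That gave 43 of the 45101 probe sets of the array, for 28 of the 30 genes. The only probe set of Isg15 is shared with a further gene and no probe set carried the symbol Ifi44, so neither gene was analysed here. Mouse liver RNA of 6 samples was compared, 3 of them labelled wild type B6 (WT 1 to 3, titled 78, 30 and 31) and 3 labelled LIGHT Tg (LIGHT Tg 1 to 3, titled 77, 34 and 35). The mice of all 6 samples were 4 to 8 weeks old and had received the high-fat diet TD88137 for 2 weeks, so no group on another diet was compared. Total RNA of whole liver was hybridised to 1 Affymetrix array per sample. LIGHT Tg denotes a transgene for LIGHT, a cytokine of the tumour necrosis factor family that Tnfsf14 encodes. The sources used here give neither the promoter of the transgene nor the strain of its carriers, so strain and transgene cannot be told apart. Genotypes were taken from source names and titles, since the description field has every sample as wild type.

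Type I interferons act through the receptor chains Ifnar1 and Ifnar2 and the kinases Jak1 and Tyk2, which activate a complex that holds Stat2 and Irf9 and binds the interferon-stimulated response element (ISRE). Type II interferon, interferon gamma, acts through Ifngr1 and Ifngr2 on genes with a gamma-activated sequence (GAS), and it induces Irf1, which binds ISRE-like sites in turn. Most responsive genes answer to both interferons to some degree, so the division used here, into 21 type I and 9 type II response genes, is one of emphasis. In liver, hepatocytes and the resident macrophages, called Kupffer cells, both respond to interferon.

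Both elements could be read in RefSeq promoter windows (GRCm38.p6, 250 bases before to 50 after a transcription start), which were found for 24 of the 30 listed genes. The ISRE was searched on both strands as GAAA, any 2 bases and GAAA again, and the GAS as TTCNNNGAA, which reads alike on both. The ISRE letters were present in a window of 12 of the 24 genes, 8 of 16 type I and 4 of 8 type II, and in 3.99% of all 27025 genes with a window. The GAS letters were present for 6 of the 24, and for 9.55% of all genes. A match describes the letters and is not a measured site. The stretches below show the 2 elements for 7 genes whose values are described further on. They lie wholly upstream of the gene, run 5′ to 3′ along the gene's strand, and carry the matching letters, which show TTTC in place of GAAA where the match is on the opposite strand, in capitals. Capitals mark 1 match per stretch. The stretch of Ifit1 also holds another ISRE match, and that of Igtp a GAS match, in lower case. In the stretch of Irgm1 another ISRE match overlaps the marked one, begins in lower case and ends in its first capital GAAA.
Ifit1 (ISRE, chr19:34640760-34640819, plus strand): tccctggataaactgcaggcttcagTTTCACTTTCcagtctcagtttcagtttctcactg
Rsad2 (ISRE, chr12:26456538-26456597, minus strand): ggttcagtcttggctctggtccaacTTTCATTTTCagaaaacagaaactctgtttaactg
Gbp2 (ISRE, chr3:142620579-142620638, plus strand): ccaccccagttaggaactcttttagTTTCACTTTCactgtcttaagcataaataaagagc
Igtp (ISRE, chr11:58199497-58199555, plus strand): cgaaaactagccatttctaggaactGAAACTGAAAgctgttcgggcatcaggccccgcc
Irgm1 (ISRE, chr11:48871421-48871469, minus strand): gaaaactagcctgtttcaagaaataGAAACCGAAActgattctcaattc
Irf1 (GAS, chr11:53769899-53769957, plus strand): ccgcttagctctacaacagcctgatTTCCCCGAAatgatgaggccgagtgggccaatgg
Psmb8 (GAS, chr17:34198073-34198131, plus strand): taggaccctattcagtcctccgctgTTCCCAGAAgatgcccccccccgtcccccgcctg

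The values are the authors' MAS5 signals, 1 per probe set on a linear scale. Median signals lay between 175 and 183 on the 6 arrays. The arrays titled 77 and 78 (LIGHT Tg 1 and WT 1) stood apart from the 4 titled 30 to 35. Xist, the RNA that coats the inactive X, had signals of 407 and 444 on that pair and of 7993 to 9714 on the others, and the Y-linked gene Eif2s3y had 1037 and 1272 against at most 2.82. That is the pattern of male liver in the pair and of female liver in the other 4. Each genotype holds 1 array of the pair, so results are also given with the title-number set as a block and within each set. No source used here explains the title number. All 8 hepatocyte markers, among them Alb and Ttr, had signals of at least 13869 on every array at their brightest probe set. At a false discovery rate of 5% in limma, 4 of their 15 tested probe sets differed between the title-number sets, beside 27.4% of all tested. Of the 4, a dimmer probe set of Apob had 2099 on WT 1 and 1967 on LIGHT Tg 1, against 9752 to 11083 on the others. Signals on LIGHT Tg 3 all had at most 1 decimal, against 22.6% to 26.9% of those on each other array, so the arrays did not pass through the same final numerical step. The brighter probe set of Tnfsf14 had signals of 7.43 to 11.9 in WT and 19.3 to 55.7 in LIGHT Tg, far below the filter, and limma made no call there (adjusted p = 0.423, and 0.176 with the block). Its other probe set went the other way, with overlap, at 3.75 to 7.83 in WT and 2.3 to 5.6 in LIGHT Tg. Limma made no call there either (adjusted p = 0.942, and 0.658 with the block). It is unknown whether these probes can detect the transgene.

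No interferon-stimulated gene passed the test between LIGHT Tg and WT liver. Of the 43 probe sets, 36, for 26 genes, passed the filter on low signal (a mean log2 signal of at least 7.387, or 167.4 on the linear scale) and were tested. At a false discovery rate of 5% in the limma fit, 0 of the 36 passed, where 1.17% of all tested probe sets did. With the title-number block 0 of 36 passed again, where 6.47% of all tested did. At an unadjusted p below 0.05 there were 3 of 36 (background 11.0%), and 6 of 36 with the block (background 22.6%). The smallest adjusted p among them was 0.433, and 0.120 with the block. The labels give each sample a title number of its own but do not say that the samples of a group are separate animals, so the p-values reflect sample-to-sample spread, which may in part be technical. The summed signal of 6 endothelial markers was 6600 to 7567 in WT and 9362 to 11980 in LIGHT Tg. Of their 7 tested probe sets 1 passed, for Lyve1, a sinusoidal endothelial receptor, which rose (1.24 ± 0.1998, limma adjusted p = 0.0393), and 3 passed with the block, both of Lyve1 and that of Stab2. Clec4g (0.36), Pecam1 (0.19), Cdh5 (0.12) and Kdr (-0.09) did not pass in either fit. The part of these cells in the values below was not tested.

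Differences were small and went both ways. At the brightest probe set of each gene, the log2 difference (LIGHT Tg minus WT) ran from -0.74 to 0.49, positive for 12 and negative for 14 of the 26 genes. Its median was 0.03 over the 17 tested type I genes and -0.05 over the 9 type II genes, beside -0.01 over all 11563 tested genes. The median size of the difference was 0.18 for the 26 genes and 0.20 for all tested genes. The median standard error was 0.244 on the log2 scale, and 0.179 with the block, which limits what 6 arrays could detect. The genotype groups did not overlap at 6 of 36 probe sets, or 16.7%, beside 17.4% of all tested. LIGHT Tg was the higher group at 1 of the 6 (background 8.17%) and the lower at 5 (background 9.19%).

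**Figure D1:**
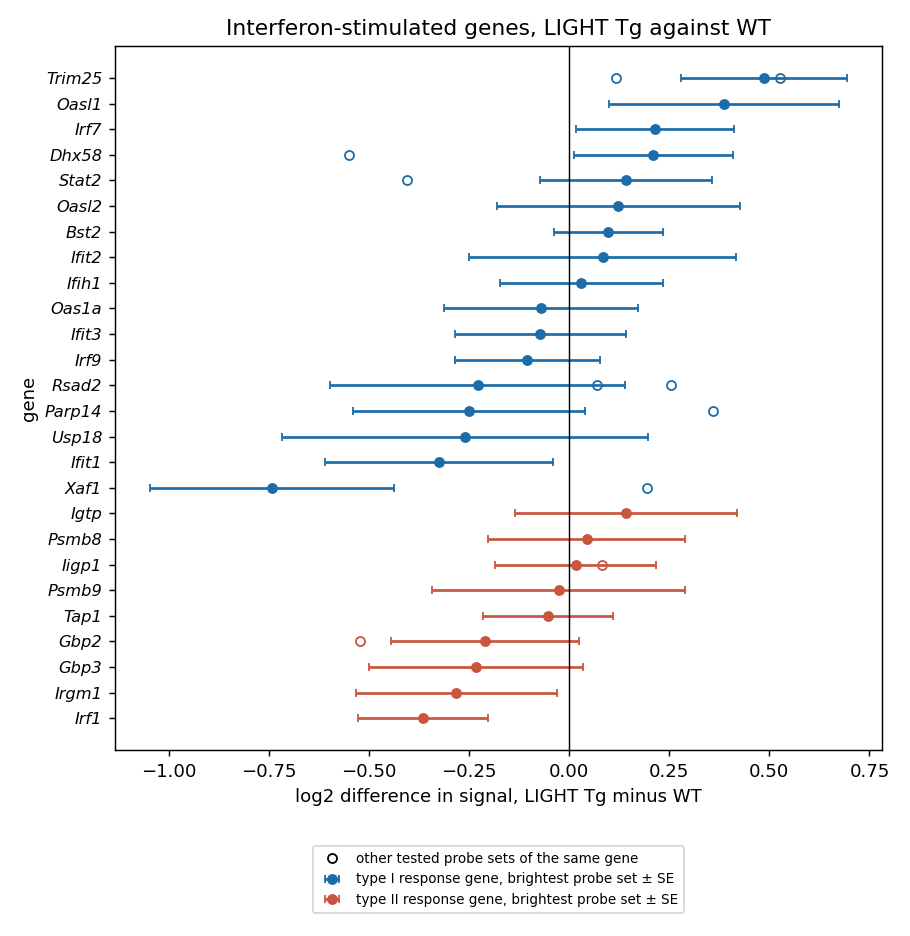
Log2 difference in signal between LIGHT Tg and WT liver (x axis) for the 26 tested interferon-stimulated genes (y axis), 17 type I in blue and 9 type II in red. Filled points are the brightest probe set with its moderated standard error, n = 3 per group, and open points are the gene's other tested probe sets. The filled points lie on both sides of 0, between -0.74 for Xaf1 and 0.49 for Trim25, and open points of Dhx58, Stat2, Parp14, Rsad2 and Xaf1 fall on the other side of 0 from the filled one.

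Among the sensors, Trim25, the ubiquitin ligase that activates the RNA sensor RIG-I, had the highest difference of the brightest probe sets. Its brightest probe set had signals of 2276, 1964 and 3070 in WT 1 to 3 and of 3003, 3144 and 3996 in LIGHT Tg 1 to 3. LIGHT Tg 1 lay below WT 3, so the groups overlapped. The log2 difference was 0.49 ± 0.207 (SE, n = 3 per group), with a 95% interval of 0.00 to 0.97 and an adjusted p of 0.455 in the limma fit. A dimmer probe set had 451, 504 and 322 in WT and 601, 554 and 659 in LIGHT Tg, and there every LIGHT Tg signal lay above every WT signal (0.53 ± 0.221, adjusted p = 0.447, and 0.171 with the block). The last of the 3 had 0.12. Ifih1, the long double-stranded RNA sensor MDA5, had 2020, 1645 and 1854 in WT and 2389, 1498 and 1835 in LIGHT Tg, with both extremes in LIGHT Tg and a difference of 0.03 ± 0.204.

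Dhx58, the RNA sensor homolog LGP2, gave opposite signs at its 2 tested probe sets. The brighter had signals of 438, 357 and 328 in WT and 475, 413 and 403.5 in LIGHT Tg (0.21 ± 0.199). The other had 438, 399 and 402 in WT and 392, 230.0 and 248 in LIGHT Tg, a difference of -0.55 ± 0.252 (adjusted p = 0.498, and 0.120 with the block). At the first the groups overlapped, and at the second every LIGHT Tg signal lay below every WT signal, so no direction can be given for the gene.

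Among the transcription factors, Irf1, the factor induced most directly by interferon gamma, was the member with the smallest p of the type II genes. Its signals were 1755, 1730 and 1871 in WT and 1635, 1248 and 1302 in LIGHT Tg. All 3 LIGHT Tg signals lay below all WT signals, LIGHT Tg 1 by the least. The log2 difference was -0.37 ± 0.162, with a 95% interval of -0.75 to 0.02 (adjusted p = 0.480, and 0.148 with the block). Stat2, the type I signal transducer, had 810, 850.1 and 701 in WT and 669, 919 and 1056 in LIGHT Tg at its brighter probe set (0.14 ± 0.215). At the other it had 999, 644 and 628 in WT and 496, 578 and 608 in LIGHT Tg, without overlap (-0.40 ± 0.231, adjusted p = 0.632). Irf7, which amplifies type I interferon production, had a difference of 0.21 ± 0.197, and Irf9, the DNA-binding part of the complex that holds Stat2, had -0.10 ± 0.181. The 4 factors thus differed in sign.

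Of the antiviral effectors, Xaf1, a pro-apoptotic interferon target, had the largest difference of all 26 genes. Its signals were 1782, 2532 and 2455 in WT and 1665, 839 and 1694 in LIGHT Tg. Every LIGHT Tg signal lay below every WT signal, with LIGHT Tg 1 and 3 just below WT 1 and LIGHT Tg 2 lower than any other array. The log2 difference was -0.74 ± 0.305, with a 95% interval of -1.46 to -0.03 (adjusted p = 0.433, and 0.195 with the block). It was -0.10 between the 2 arrays titled 77 and 78 and -1.06 within those titled 30 to 35. A dimmer probe set of Xaf1 had 0.19 ± 0.249, with overlapping groups.

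The Ifit genes encode proteins that bind foreign RNA. Ifit1 had signals of 967, 769 and 913 in WT and 942, 459 and 799 in LIGHT Tg. The groups overlapped, with LIGHT Tg 2 the lowest array (-0.32 ± 0.285, limma adjusted p = 0.809). Ifit2 had 0.08 ± 0.333 and Ifit3 had -0.07 ± 0.215. Rsad2, the antiviral enzyme viperin, had 996, 775 and 878 in WT and 950.5, 408 and 1087 in LIGHT Tg at its brightest probe set, with the lowest and the highest signal both in LIGHT Tg (-0.23 ± 0.368). Its other probe sets had 0.25 and 0.07. In the 2-5A synthetase family, Oas1a, which makes the activator of RNase L, had -0.07 ± 0.242, and the related Oasl1 and Oasl2 had 0.39 ± 0.287 and 0.12 ± 0.303. Parp14, an ADP-ribosyltransferase, had -0.25 ± 0.290 at its brighter probe set and 0.36 ± 0.277 at the other. Bst2, the virus tether tetherin, had 0.10 ± 0.137, the smallest standard error of the 26. None of these passed.

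Usp18, which removes Isg15 from proteins and damps type I interferon signalling, had the widest spread of the 26 genes within LIGHT Tg. Its signals were 1264, 1068 and 1239 in WT and 2058, 511 and 928 in LIGHT Tg. The highest and the 2 lowest signals were all in LIGHT Tg, with an SD of 1.01 on the log2 scale there. The log2 difference was -0.26 ± 0.458 (adjusted p = 0.939), and it was 0.70 between the arrays titled 77 and 78 and -0.74 within the others. The test of that difference between the sets did not pass (adjusted p = 0.379). Mx1 and Mx2, dynamin-like antiviral GTPases, were below the filter, with signals of 90.7 to 200.2 and of 16.1 to 40.3. Neither was tested.

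Among the interferon gamma-inducible GTPases, which act on vacuoles that hold pathogens, 0 of 7 probe sets passed and 2 of 5 genes had positive differences. Gbp2 had 322, 436 and 469 in WT and 378.5, 287 and 392 in LIGHT Tg at its brighter probe set, with overlap (-0.21 ± 0.235). Its other probe set had 368, 525 and 372 in WT and 305, 221 and 359.7 in LIGHT Tg, where every LIGHT Tg signal lay below every WT signal (-0.52 ± 0.263, adjusted p = 0.554). Gbp3 had 691, 959 and 1097 in WT and 900.1, 560 and 891 in LIGHT Tg, which overlapped (-0.23 ± 0.267). Guanylate-binding protein genes are close paralogs whose probe sets may share sequence, so the member measured is uncertain. Igtp had 0.14 ± 0.277 and Irgm1 had -0.28 ± 0.251, and their signals are given with the title-number sets below.

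As a group, the antigen processing genes were nearest to no difference at their brightest probe sets, though with wide intervals. Tap1, the peptide transporter, had -0.05 ± 0.163 at its bright probe set, with signals between 536 and 624 on all 6 arrays. Psmb8 and Psmb9, catalytic subunits of the immunoproteasome, had 0.04 ± 0.246 and -0.03 ± 0.315. The 95% intervals on the log2 scale were -0.44 to 0.33 for Tap1, -0.53 to 0.62 for Psmb8 and -0.77 to 0.71 for Psmb9. The 3 dimmer probe sets of Tap1 and 1 of Psmb8 were below the filter and were not tested. Their log2 differences were -0.53, 0.55 and 0.74 for Tap1 and 0.38 for Psmb8.

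One array, LIGHT Tg 2, was low across these genes. It had the lowest signal of the 6 arrays at 21 of the 36 tested probe sets, or 58.3%, where it was lowest at 14.8% of all tested probe sets, and it had the highest at 0 of 36 (background 12.1%). Of the 26 genes, 22 lay below their own mean over the arrays in LIGHT Tg 2, 14 of 17 type I and 8 of 9 type II. The median deviation from the mean was -0.36 on the log2 scale for type I and -0.33 for type II genes, and -0.01 for all tested genes. LIGHT Tg 3, titled with the next number, was the lowest at 0 of 36 (background 13.6%), and its median deviations were 0.07 and 0.11. Between LIGHT Tg 2 and LIGHT Tg 3, 25 of 26 genes were lower in LIGHT Tg 2, by a median of 0.46, where 51.6% of all tested genes were. The exception was Dhx58. This pattern was noticed in these values and carries no test. The SD within LIGHT Tg exceeded that within WT for 18 of the 26 genes, and for 47.7% of all tested genes. That was 13 of 17 type I and 5 of 9 type II genes. The median SD of the type II genes was 0.289 in LIGHT Tg and 0.317 in WT.

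**Figure D2:**
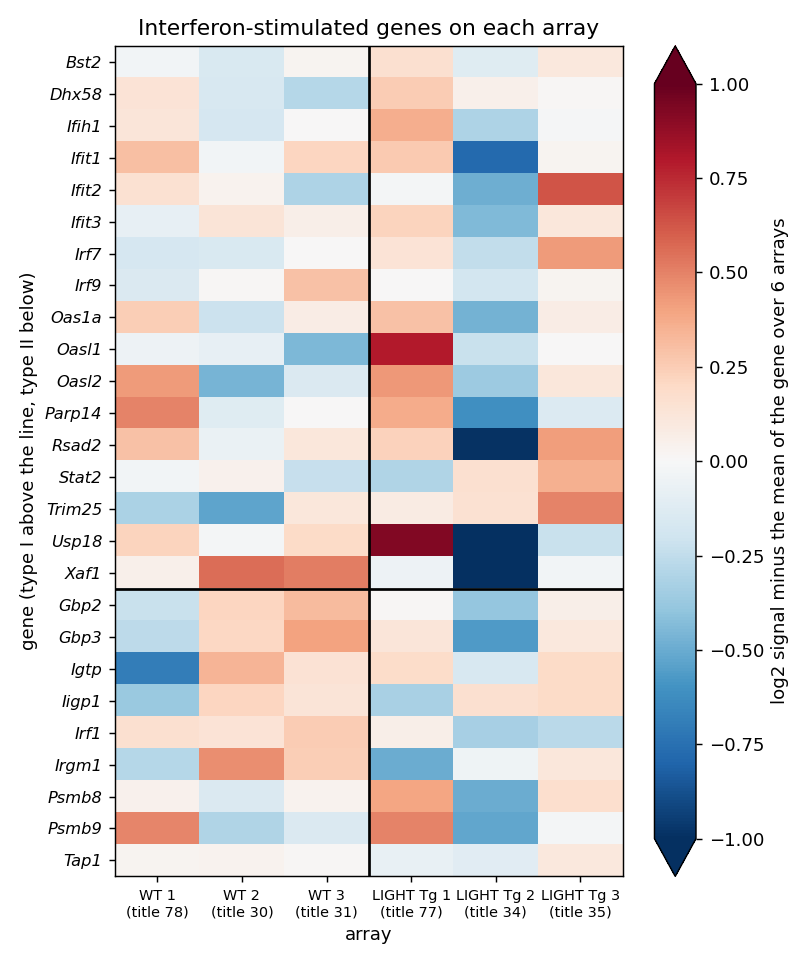
Log2 signal of each of the 26 tested genes (rows, brightest probe set) on each of the 6 arrays (columns), as the difference from the gene's mean over the arrays, blue lower and red higher, with colours saturating at -1 and 1. The LIGHT Tg 2 column is blue for 22 of the 26 genes, while Igtp, Iigp1 and Irgm1 are blue in WT 1 and Psmb9 and Parp14 are red in both WT 1 and LIGHT Tg 1.

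Kupffer cell and macrophage markers were low on the same array. Of 10 listed markers, all measured and above the filter, 9 had their lowest signal in LIGHT Tg 2. Their summed signal was 26349 there and between 38206 and 44302 on the other 5 arrays. Cd5l, a macrophage-secreted protein, had 4943 in LIGHT Tg 2 against 6874 to 9460 elsewhere, and Clec4f, the Kupffer cell lectin, had 3034 against 4055 to 5251. Neutrophil markers summed to 1500 in LIGHT Tg 2 and to 2170 to 5435 on the other arrays, with 3 of the 5 measured markers lowest there. Monocyte markers summed to 2557 and to 2873 to 4329, most of it from Lyz2. Ccr2 gave no single picture. At its brightest probe set it was lower in WT 1 (139) and LIGHT Tg 1 (161) than in LIGHT Tg 2 (283). At its other tested probe set LIGHT Tg 2 was the lowest array, with 125 against 276 in WT 1 and 394 in LIGHT Tg 1. The natural killer and B cell sums of LIGHT Tg 2 lay inside the range of the other 5, as did the hepatocyte sum of 167809 and the plasmacytoid dendritic cell sum of 1267. Its T cell sum of 975.1 was the highest, with 617 of it from Cd8a. Few of the lymphoid and plasmacytoid markers passed the filter, so their sums say little about those cells. Those that did were 1 of 6 measured for T cells, 3 of 6 for natural killer cells and 3 of 5 each for B and plasmacytoid dendritic cells. In whole liver, fewer cells of a type and less RNA per cell cannot be told apart, and the part of these cells in the low interferon-stimulated signals was not tested. Without LIGHT Tg 2 the median log2 difference was 0.19 for type I and -0.01 for type II genes, and again 0 of 36 probe sets passed.

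**Figure D3:**
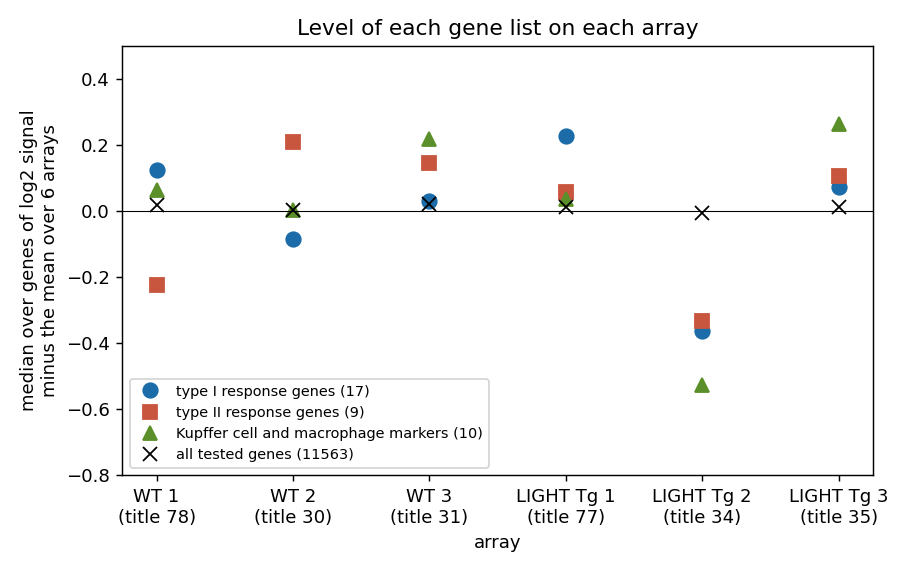
Median over genes of the log2 signal minus each gene's mean over 6 arrays (y axis), for each array (x axis), for 17 type I genes, 9 type II genes, 10 Kupffer cell and macrophage markers and all 11563 tested genes. In LIGHT Tg 2 both interferon lists (-0.36 and -0.33) and the macrophage markers (-0.53) lie below their values on every other array, while all tested genes stay at -0.01.

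Some members differed between the title-number sets, that is between the arrays with the male and with the female pattern. In the fit with genotype and set, 6 of 36 probe sets (16.7%) passed 5% FDR, beside 27.4% of all tested probe sets. In the arrays titled 77 and 78, 3 were higher (background 11.7%) and 3 lower (background 15.7%). Of 3 control ratios 2 separated the pair from the rest: the ratio of the 3′ to the 5′ probe set of the 18S control was 1.003 and 2.23 on the pair and 0.198 to 0.305 on the others, and that of Gapdh was 0.776 and 0.852 against 0.645 to 0.716. The Actb ratio overlapped, at 1.275 and 1.308 against 1.275 to 1.450. Sex, title number and these 2 control signals cannot be told apart.

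The 3 lower probe sets belonged to the GTPases. Iigp1, an interferon gamma-inducible GTPase, had 5169, 13161 and 14393 in WT 1 to 3 and 6029.7, 13384 and 14393 in LIGHT Tg 1 to 3, with an identical signal in WT 3 and LIGHT Tg 3. The difference was -1.31 ± 0.0863 on the log2 scale (limma adjusted p = 0.000544). Its brighter probe set had 11829, 17769 and 16722 in WT and 12212, 17086 and 17443 in LIGHT Tg (-0.52 ± 0.0635, adjusted p = 0.00298). Within each set the 2 genotypes had nearly the same Iigp1 signal, with log2 differences of 0.05 and 0.00 at the brighter probe set. Irgm1, which guards vacuole membranes, had 1288, 2163 and 1865 in WT and 1117, 1525 and 1697 in LIGHT Tg, with the first array of each group low (-0.58 ± 0.126, adjusted p = 0.0164). Igtp had 1743 in WT 1 and 3202 in LIGHT Tg 1, against 3565 and 3118 in WT 2 and 3 and 2523 and 3222 in LIGHT Tg 2 and 3. Of these arrays only WT 1 was low, and the Igtp difference between the sets did not pass (-0.38 ± 0.244, adjusted p = 0.271).

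The 3 higher probe sets belonged to Psmb9, Oasl2 and Parp14. Psmb9 had 1375, 797 and 888 in WT and 1385, 686.3 and 969.5 in LIGHT Tg, so the sets did not overlap (0.74 ± 0.168, adjusted p = 0.0199). Its neighbour Tap1, whose RefSeq promoter window overlaps that of Psmb9 on the other strand, had -0.03 ± 0.139 at its only tested probe set. Its dimmer probe sets, below the filter and not tested, had 1.20, 0.94 and 0.61. Oasl2 had 666, 360.4 and 450.2 in WT and 671, 386 and 539 in LIGHT Tg (0.64 ± 0.190, adjusted p = 0.0438), and Parp14 had 1462, 954 and 1042 in WT and 1343, 679 and 947 in LIGHT Tg (0.65 ± 0.167, adjusted p = 0.0288). Oasl1 had 788 in WT 1 and 1410 in LIGHT Tg 1, against 768 and 597 in WT 2 and 3 and 699 and 818 in LIGHT Tg 2 and 3 (0.56 ± 0.201, adjusted p = 0.0769), so its gap rested mostly on LIGHT Tg 1. Only the 2 Iigp1 probe sets passed whichever array was left out. The count fell to 3 without WT 1, without WT 2 and without LIGHT Tg 1. Psmb9, Oasl2 and Parp14 were lost in all 3 cases and Irgm1 without WT 1 or LIGHT Tg 1, while Usp18 passed without WT 1 and Igtp without LIGHT Tg 1. Leaving out WT 1 or LIGHT Tg 1 leaves 1 array in the pair, which is then assumed to vary as the other arrays do.

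**Figure D4:**
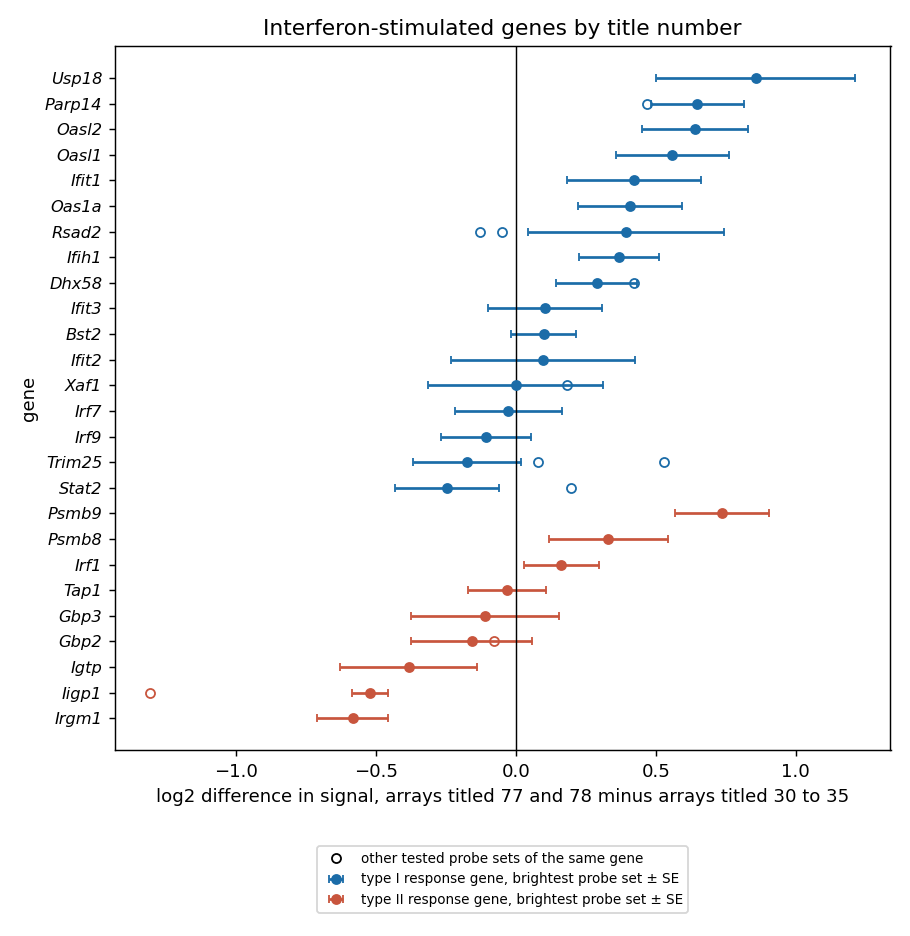
Log2 difference in signal between the 2 arrays titled 77 and 78 and the 4 titled 30 to 35 (x axis), from the fit with genotype, for the 26 tested genes (y axis), type I in blue and type II in red. Filled points are the brightest probe set with its standard error and open points the other tested probe sets. Irgm1 and Iigp1 lie lowest, at -0.58 and -0.52 with the second Iigp1 probe set at -1.31, and Usp18 (0.86, not past the test) and Psmb9 (0.74) highest.

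No call was made that the genotype difference depends on the set. The interaction of genotype and set passed for 0 of 36 probe sets at 5% FDR in limma, with 3 at an unadjusted p below 0.05, beside 0.0666% and 11.0% of all tested probe sets. The smallest adjusted p was 0.260, for Igtp. The pair holds 1 array per genotype, so this test has little reach. The median type I difference was 0.12 within the pair and -0.08 within the arrays titled 30 to 35, and the median type II difference was 0.05 and -0.23.

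The rest of the pathway was read from 114 other symbols, of which 100 had a probe set and 85 one above the filter. Of their 131 tested probe sets 0 passed at 5% FDR in limma and 12 had an unadjusted p below 0.05, beside 1.17% and 11.0% of all tested. With the block 6 passed, beside 6.47% of all tested. Of the 6, 2 were higher (background 3.26%) and 4 lower (background 3.21%). The receptor chains and kinases were among those that did not pass at their brightest probe set: Ifnar1 had -0.03 ± 0.175, Ifnar2 0.14 ± 0.2003, Ifngr1 -0.05 ± 0.307, Ifngr2 -0.29 ± 0.210, Jak1 -0.15 ± 0.143 and Tyk2 0.12 ± 0.203. Between the title-number sets 28 of the 131 probe sets differed, or 21.4%, beside 27.4% of all tested. Ifngr1 was among them, with 839 and 846 on the pair and 1266 to 1646 on the others (limma adjusted p = 0.0135). The interferon genes themselves were below the filter, Ifnb1 with signals of 97.6 to 247 and Ifng with 3.11 to 65.6.

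The probe sets that passed with the block belonged to genes at different places in the pathway. Il18, the cytokine that induces interferon gamma, had 1580, 1581 and 1429 in WT and 974, 923 and 964 in LIGHT Tg, with no overlap (-0.68 ± 0.144, adjusted p = 0.0958, and 0.0165 with the block). Samhd1, which depletes deoxynucleotides, had 2422, 1234 and 1378 in WT and 726, 682 and 557 in LIGHT Tg at its brightest probe set (-1.30 ± 0.278, adjusted p = 0.0966, and 0.00817 with the block). Its 3 other tested probe sets had -0.43, -0.16 and -1.32 and did not pass. Gbp2b had 451, 412 and 568 in WT and 261, 270 and 287 in LIGHT Tg (-0.79 ± 0.202, adjusted p = 0.157, and 0.0398 with the block), and shares close paralogs with the Gbp genes above.

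Zbp1 and Cxcl11 were the 2 that were higher. Zbp1, a sensor of Z-form nucleic acid, had 312, 226 and 358 in WT and 763, 446 and 644 in LIGHT Tg, every LIGHT Tg signal above every WT signal (1.04 ± 0.278, adjusted p = 0.182, and 0.0466 with the block). Cxcl11, an interferon-induced chemokine, had 138, 680.3 and 471 in WT and 753, 1238 and 929 in LIGHT Tg (1.43 ± 0.560, adjusted p = 0.396, and 0.0487 with the block). Irf3, the factor that starts interferon transcription, passed with the block at a probe set of intermediate brightness (-0.95 ± 0.397, adjusted p = 0.447, and 0.0131 with the block), while its brightest had 0.09 ± 0.194. Parp9, with -0.56 ± 0.163, and Trim21, with -0.65 ± 0.210, had adjusted p of 0.220 and 0.284, and of 0.0541 and 0.0815 with the block. LIGHT Tg 2 had the lowest signal at 36 of these 131 probe sets, or 27.5%, beside 14.8% of all tested. WT 1 had it at 31, or 23.7%, but its share over all tested probe sets was not computed.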

How the data were processed

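Each array gave 1 intensity per probe set, deposited by the authors as linear MAS5 signals, per the submitters' processing notes. No source used here states the MAS5 version, the scaling or the detection calls, nor why only LIGHT Tg 3 has all its signals to at most 1 decimal. The 106 signals under 1 were raised to 1 before taking log2. Control probe sets (64) were left out, and 22519 of 45037 others, with a mean log2 at or above the median of 7.387, were tested. The genotypes were tested with limma 3.58.1 in R 4.3.3 (lmFit, eBayes with a variance trend), two-sided, with Benjamini-Hochberg adjustment over all tested probe sets and a threshold of 5% FDR. Members below the filter take their values from a fit without it. Further fits added the title-number set (77 and 78 against 30 to 35) and its interaction with genotype. The steps were tested on simulated data. Genes were named from the array's annotation, and RefSeq (GRCm38.p6) changed 0 member symbols; probe sets with several symbols were not used.

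The members and all gene lists were chosen with earlier results of these data known. Each member was described by its brightest probe set and by others that disagreed. Signals of every array are given for members past 5% FDR in any fit, for those whose genotypes do not overlap, and for the 4 type I and 4 type II members with the smallest p for genotype and for set. Of other pathway genes, those past 5% FDR in any fit, the 6 with the smallest p and the receptors, kinases and interferons are named; Ifit1, Rsad2 and Usp18 were given in full after their values were seen. Alternatives were other filters, an offset of 37.5 before log2, quantile and median scaling, other moderation, the block and leaving out each array. The fit on the arrays titled 30 to 35 alone was chosen after seeing the data. matplotlib 3.10.9 under Python 3.11.15 drew the figures.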

Additional observations from a re-analysis of the deposited data

How the results depend on the processing

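The count of interferon-stimulated probe sets past 5% FDR for genotype was 0 under every alternative run. In the arrays titled 30 to 35 alone, a fit chosen once the data had been seen, the lowest adjusted p among them was 0.0719. The count with an interaction was 0 under every alternative run. The count differing between the title-number sets was 5 or 6 under the other filters, scalings and moderations, and 3 to 6 with each array left out. Medians of type I and type II genes moved by less than the spread between arrays under every alternative, though the type I median changed sign under 5 of them; without 1 array they lay between -0.13 and 0.19 and between -0.17 and -0.01. Of 131 other pathway probe sets 0 passed without the block, with all 6 arrays and with each array left out. With the title-number block 6 passed, and 2 passed in the arrays titled 30 to 35 alone. The fit with the block was not rerun with an array left out. Of all tested probe sets 1457 passed with that block and 956 in the arrays titled 30 to 35 alone. Without the block 148 passed without the variance trend, and 43 to 306 with each array left out.

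Of 26 tested members 13 changed sign under at least 1 alternative, all with differences that did not pass. In the arrays titled 30 to 35 alone, Ifih1 had -0.075, Igtp -0.23 and Psmb8 -0.11. Leaving out each array gave ranges of Ifih1 -0.15 to 0.19, Ifit2 -0.21 to 0.35, Ifit3 -0.20 to 0.13, Irf9 -0.20 to 0.018, Oas1a -0.23 to 0.15, Oasl2 -0.078 to 0.37, Rsad2 -0.50 to 0.21, Stat2 -0.0014 to 0.33, Usp18 -0.79 to 0.22, Igtp -0.17 to 0.35, Iigp1 -0.16 to 0.18, Psmb8 -0.14 to 0.30 and Psmb9 -0.28 to 0.23. No paired analysis was possible because the labels give the groups no shared replicate numbers. Signal over background could not be judged without detection calls.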
